A study of Mus musculus with 12 samples.

Results

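The Toll-like receptors are a family of membrane proteins through which innate immune cells sense microbial products and, in damaged tissue, molecules of the host. Here the transcripts of 10 of them were followed across the cell types of mouse breast tumors. The genes were taken by name (Tlr1, Tlr2, Tlr3, Tlr4, Tlr7, Tlr8, Tlr9, Tlr11, Tlr12 and Tlr13), and all 10 were found among the 31053 genes of the data. The other 2 family genes in the data, Tlr5 and Tlr6, are given with the pathway.

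Single cells had been isolated from spontaneous breast tumors of MMTV-PyMT mice, in which a mammary tumor virus promoter drives the polyoma middle T oncogene in mammary epithelium. All mice carried this transgene and were either PAR2 WT or PAR2 G37I, the latter with a form of protease-activated receptor 2 that does not signal in response to coagulation factor Xa. The CD11c-selected set held 3 PAR2 WT and 3 PAR2 G37I samples from late-stage tumors, and the CD4/CD8-selected set held 3 and 3 samples from mid-size tumors, all selected with beads, frozen, thawed and run on the 10x Genomics platform. The labels give no age for the mice of single samples. Each set came as 1 pooled matrix of counts of unique molecular identifiers (UMIs, 1 per captured transcript), and nothing in it tied a cell to a sample or a genotype. For that reason the genotypes are not compared, each matrix counts as a single sample, and no test was run.

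After cells with fewer than 200 detected genes had been left out, the CD11c-selected matrix held 11639 cells with a median of 7943 UMIs, and the CD4/CD8-selected matrix held 22806 cells with a median of 4361 UMIs. Cells were assigned to types by thresholds on the raw UMIs of marker genes, called gates here. Levels are UMIs of a gene per 1000000 UMIs of the gate (CPM), with an exact 95% Poisson interval that covers counting error only. In the files, barcodes were sorted alphabetically in 6 consecutive runs per matrix, which could be linked to no sample and served only to show how far a level spread. These runs held 360 to 2784 cells in the CD11c-selected matrix, and the smallest of them, run 4, was also the deepest with a median of 31161.5 UMIs, against 6290 to 9285.5 in the other runs. In that matrix 76 barcodes occurred more than once, and 51 did in the other.

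Of the CD11c-selected cells, 7502 (64.5%) fell into a single gate, among them 5575 macrophages, 379 type 1 conventional dendritic cells (cDC1), 218 type 2 conventional dendritic cells (cDC2), 186 migratory dendritic cells, 99 monocytes, 91 neutrophils, 484 myeloid cells with Retnla or Ear2, and 285 tumor or epithelial cells. Macrophages were divided further by Lyve1/Cd209f, Gpnmb/Trem2, Tmem119/Zmynd15, Thbs1/Vegfa and Il10. Macrophages that met the rules of several subsets were kept in the total but left out of every subset. They were 753 (13.5%) in the CD11c-selected set and 238 (28.2%) in the CD4/CD8-selected set, so subset levels describe cells that met 1 rule only. Of the CD4/CD8-selected cells, 18601 (81.6%) fell into a single gate, among them 16731 CD8 T cells, 592 CD4 T cells, 844 macrophages, 50 plasmacytoid dendritic cells (pDC) and 262 tumor or epithelial cells. Independent markers were highest in their gate for T cells, pDC, tumor cells, neutrophils and migratory dendritic cells without exception. They were not so for monocytes (2 of 4), cDC2 (2 of 4), cDC1 (3 of 5, since Irf8 and Batf3 were higher in migratory dendritic cells), macrophages with Il10 (1 of 2), Retnla/Ear2 cells (2 of 3), macrophages as a whole in the CD11c-selected set (4 of 5) and macrophages with Thbs1/Vegfa (0 of 2, since Plac8 and Ms4a4c were higher in monocytes). Macrophage subsets are named here only by the genes that chose them.

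Toll-like receptors bind their ligands with an outer domain of leucine-rich repeats and signal through adaptor proteins inside the cell. Tlr1, Tlr2, Tlr4, Tlr5 and Tlr6 act at the cell surface on lipoproteins, lipopolysaccharide and flagellin. Tlr3, Tlr7, Tlr8, Tlr9, Tlr11, Tlr12 and Tlr13 act in endosomes, to which the chaperone Unc93b1 brings them, on nucleic acids or, for Tlr11 and Tlr12, on profilin of protozoa. Myd88 is the adaptor of nearly the whole family, Ticam1 (TRIF) is that of Tlr3 and of internalized Tlr4, and activation of either arm leads to NF-kB and interferon regulatory factors.

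All 10 genes are annotated as protein-coding in GENCODE M21 on GRCm38, the assembly that the processing notes of the submitters name as mm10. Tlr1 spans bases 64924679 to 64933563 of chromosome 5 on the minus strand and lies 18467 bases from Tlr6. Of the distinct words of 31 bases in the transcripts of Tlr1, 18.3% also occur in those of Tlr6, so counts of Tlr1 are uncertain where reads fell in the shared stretch, while no other pair of family genes shared such a word. Tlr7 (chromosome X, 167304929 to 167330558) and Tlr8 (chromosome X, 167242696 to 167264329) are neighbours on the minus strand, and Tlr13 lies elsewhere on chromosome X at 106143204 to 106160493 on the plus strand. Tlr3 (chromosome 8, 45395665 to 45411080, minus strand) overlaps the antisense gene Gm45542 over 698 bases, and whether counting used strand is not given in the sources used here, so reads of these partners may not have been told apart. The others are Tlr2 (chromosome 3, 83836272 to 83841767, minus strand), Tlr4 (chromosome 4, 66827584 to 66930284, plus strand), Tlr9 (chromosome 9, 106222598 to 106226883, plus strand), Tlr11 (chromosome 14, 50357914 to 50363663, plus strand) and Tlr12 (chromosome 4, 128615443 to 128618619, minus strand).

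Promoters are shown for 3 members whose levels differed widely between cell types in what follows: Tlr11 and Tlr12, which were both found in cDC1, and Tlr2, which was high in macrophages and low in cDC1. Each sequence lies in the stretch of 250 bases before the start of the gene in the RefSeq table for GRCm38.p6. For Tlr2 the 159 of these bases that fall in an exon of GENCODE are left out, and Tlr3 is not shown because 178 of its bases do. The sequences are written 5′ to 3′ on the strand of the gene, and capitals mark the matches of 4 motifs searched on both strands. These were GAAANNGAAA (the interferon-stimulated response element bound by interferon regulatory factors), GGAANNGAAA (the composite element of Ets and interferon regulatory factors), AGGAAGT (an Ets site of the kind bound by PU.1) and GGGANTTNCC (an NF-kB site). Matches of different motifs did not overlap in the promoters of Tlr2, Tlr3, Tlr11 and Tlr12.
Tlr11 promoter, chr14:50357664-50357913, plus strand: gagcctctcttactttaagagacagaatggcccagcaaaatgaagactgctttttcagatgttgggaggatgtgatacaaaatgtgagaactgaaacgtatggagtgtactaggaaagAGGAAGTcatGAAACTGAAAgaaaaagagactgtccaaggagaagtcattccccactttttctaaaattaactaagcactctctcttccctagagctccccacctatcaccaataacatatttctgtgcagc
Tlr12 promoter, chr4:128618620-128618869, minus strand: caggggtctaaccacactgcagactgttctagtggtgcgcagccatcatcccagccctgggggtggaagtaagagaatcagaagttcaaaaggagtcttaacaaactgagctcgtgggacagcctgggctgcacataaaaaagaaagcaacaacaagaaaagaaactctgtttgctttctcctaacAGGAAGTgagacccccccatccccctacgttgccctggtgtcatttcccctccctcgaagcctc
Tlr2 promoter, chr3:83841768-83841858, minus strand: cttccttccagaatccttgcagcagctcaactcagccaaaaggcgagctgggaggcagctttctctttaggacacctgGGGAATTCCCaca

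The Tlr11 promoter held AGGAAGT 132 to 126 bases before the start and the interferon-stimulated element as GAAACTGAAA 122 to 113 bases before it. The Tlr12 promoter held AGGAAGT at 64 to 58 bases. In the Tlr3 promoter the NF-kB motif occurred as GGGAGTTTCC at 211 to 202 bases, which fall in an exon of GENCODE. In the Tlr2 promoter it occurred at 172 to 163 bases as GGGAATTCCC, which reads alike on both strands. Among all 32851 promoters of the table, 7.69% held AGGAAGT, 2.98% the interferon-stimulated element, 2.3% the composite element and 0.98% the NF-kB motif. A match is a description of the letters and not a binding site. Of the members, 8 had promoters in the table, and Tlr4 and Tlr7 did not.

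The plot of all 10 genes by gate shows 4 kinds of pattern. Tlr1, Tlr2, Tlr7, Tlr8 and Tlr12 were highest in a macrophage gate of the CD11c-selected cells, Tlr3 and Tlr11 in cDC1, and Tlr4 and Tlr13 in neutrophils. Tlr9 did not exceed 2.31 CPM in any plotted gate of these cells. Over all 11784 genes with at least 100 UMIs in these gates, a macrophage gate was the highest for 22.5%, cDC1 for 7.65%, neutrophils for 20.9% and monocytes for 3.22%. Against this background, 5 of the 10 members were highest in macrophages, 2 in cDC1, 2 in neutrophils and 1, Tlr9, in monocytes. A gate of few UMIs, such as neutrophils with 279603 in all, is easily the highest for a gene of low counts. Levels are compared here between gates for 1 gene and not between genes, because the captured end of the transcript is not given in the sources used here.

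**Figure D1:**
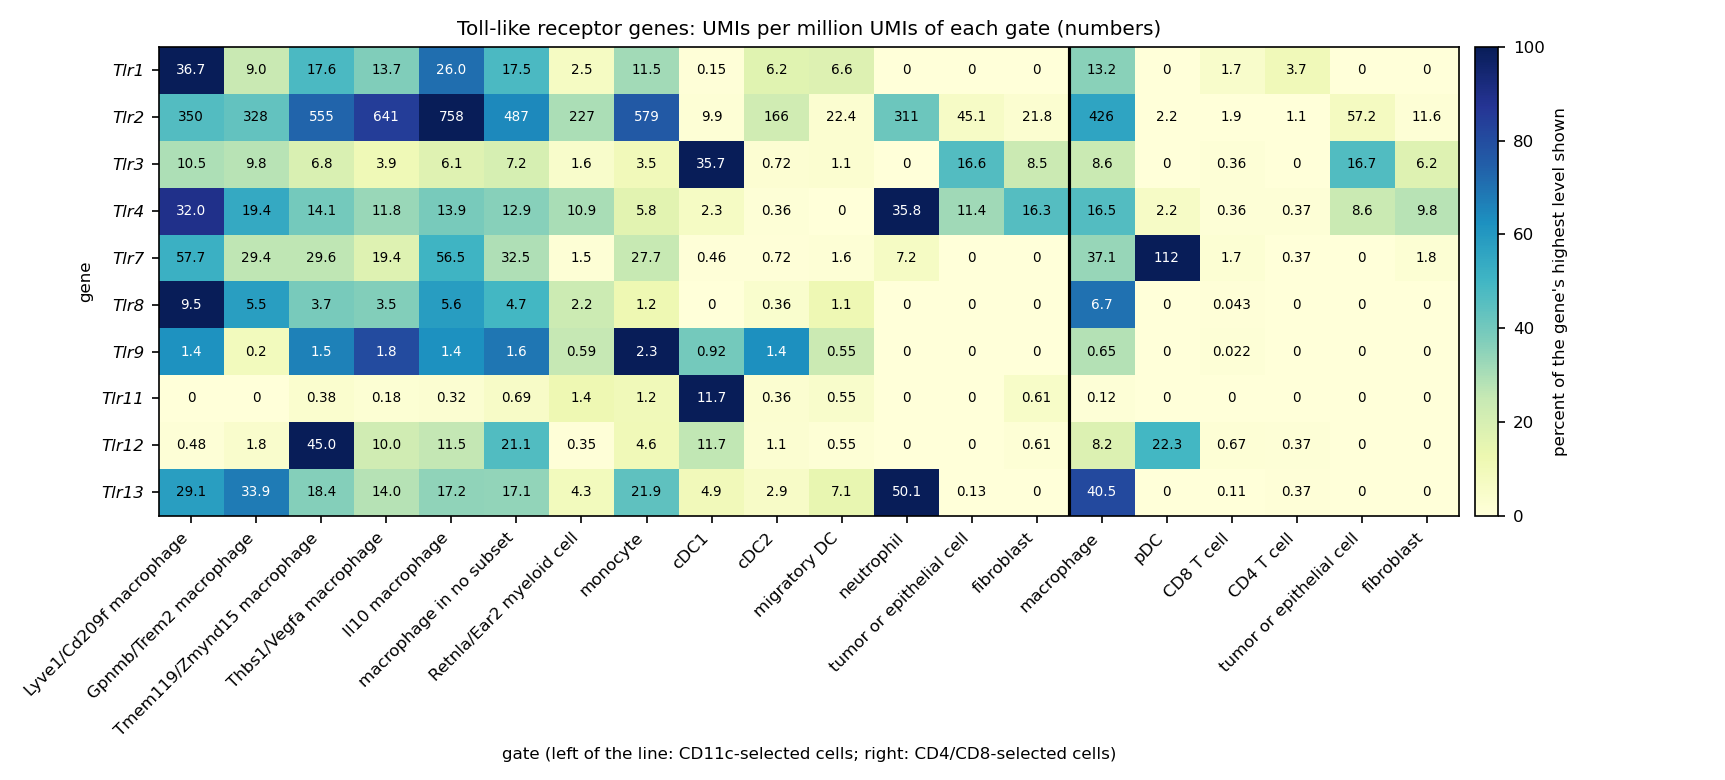
Levels of the 10 Toll-like receptor genes (rows) in each gate (columns), CD11c-selected cells to the left of the line and CD4/CD8-selected cells to the right. Numbers are CPM and shading is the percent of the highest level of that gene in the columns shown; Tlr3 and Tlr11 peaked in cDC1, Tlr12 in macrophages with Tmem119/Zmynd15, and Tlr7 in pDC.

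Tlr2, the surface receptor for bacterial lipoproteins, was present in all myeloid gates and varied widely between them. Its level was 535 CPM in macrophages of the CD11c-selected set (95% interval 530 to 541, 5575 cells), and across the 6 barcode runs it ranged from 374 to 725 CPM. Among macrophage subsets it was highest with Il10 at 758 CPM (737 to 780) and lowest with Gpnmb/Trem2 at 328 CPM (313 to 345), which overlapped the 350 CPM (325 to 377) of Lyve1/Cd209f macrophages. In the CD4/CD8-selected set Lyve1/Cd209f macrophages were the lowest, at 217 CPM (173 to 270) against 322 CPM (306 to 339) with Gpnmb/Trem2. The runs of CD11c-selected subsets overlapped, from 275 to 940 CPM for Il10 macrophages and from 239 to 549 CPM for Gpnmb/Trem2 macrophages, and the low value of 275 CPM came from 20 cells of run 4. Monocytes, at 579 CPM (529 to 632), lay within the range of the macrophage subsets.

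Dendritic cells were divided by Tlr2. The gene stood at 166 CPM in cDC2 (151 to 182) and at 9.92 CPM in cDC1 (7.65 to 12.6), and runs of cDC2 (131 to 188 CPM) did not overlap those of cDC1 (3.22 to 15.7 CPM). Migratory dendritic cells, which carry the lymph node homing receptor Ccr7, held 22.4 CPM (16.1 to 30.4). With each cell thinned to 2000 UMIs to equalize depth, a Tlr2 UMI was found in 55.4% of macrophages (exact binomial interval 54.1 to 56.8%), in 25.3% of cDC2 and in 1.86% of cDC1. Without thinning, Tlr2 was detected in 14.2% of cDC1, whose median depth was 16348 UMIs against 10169 in macrophages. Macrophage markers in cDC1 stood at 0.408 to 19.8% of their macrophage level with a median of 1.89%, and Tlr2 in cDC1 stood at 1.85% of its own. The part of free RNA in the cDC1 level of Tlr2 was not tested.

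Tumor or epithelial cells held Tlr2 at 45.1 CPM (40.4 to 50.1) in the CD11c-selected set and at 57.2 CPM (52.0 to 62.7) in the CD4/CD8-selected set. These were 8.43% and 13.4% of the macrophage level in the same matrix, above the median of 5 macrophage check markers in the same cells, which was 1.46% and 0.398%. Run values were 33.4 to 67.1 CPM over 5 runs and 25.4 to 79.8 CPM over 6 runs, so every run with at least 10 such cells held Tlr2.

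Tlr1, the partner of Tlr2 for triacylated lipoproteins, was also high in macrophage gates. It was highest in Lyve1/Cd209f macrophages at 36.7 CPM (29.0 to 45.9), followed by Il10 macrophages at 26.0 CPM (22.2 to 30.3), and these intervals overlapped. Gpnmb/Trem2 macrophages held 8.99 CPM (6.53 to 12.1). In Lyve1/Cd209f macrophages all 6 runs lay between 28.3 and 51.6 CPM, above the 7.46 to 17.0 CPM of the runs of Gpnmb/Trem2 macrophages. A single Tlr1 UMI was found in cDC1 and none in neutrophils or tumor cells, where 3 counts would correspond to 10.7 and 0.398 CPM. In the CD4/CD8-selected set Lyve1/Cd209f macrophages, at 21.5 CPM (9.27 to 42.3), did not stand apart. Macrophages in no subset held 20.4 CPM there, those with Il10 19.1 CPM, those with Tmem119/Zmynd15 18.8 CPM and those with Gpnmb/Trem2 9.04 CPM.

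Tlr4, the lipopolysaccharide receptor, was found in myeloid cells, tumor cells and fibroblasts. Neutrophils held 35.8 CPM, but this rested on 10 UMIs (17.2 to 65.8) and fell to 16.9 CPM without run 6, which gave 8 of them. Lyve1/Cd209f macrophages held 32.0 CPM and did not differ from neutrophils beyond these intervals, and 45.6 CPM in the CD4/CD8-selected set, where the other macrophage subsets lay between 7.63 and 17.1 CPM. Outside the leukocytes Tlr4 stood at 11.4 CPM (9.12 to 14.1) and 8.60 CPM (6.68 to 10.9) in the tumor cells of the 2 sets and at 16.3 CPM (10.8 to 23.8) and 9.80 CPM (4.89 to 17.5) in the fibroblasts. In conventional dendritic cells it was rare, with 2.29 CPM in cDC1, 0.362 CPM (a single UMI) in cDC2 and none in migratory dendritic cells, where 3 counts would be 1.64 CPM.

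Tlr3, the endosomal sensor of viral RNA duplexes, had another distribution. It reached 35.7 CPM in cDC1 (31.3 to 40.6, 234 UMIs), against 0.725 CPM in cDC2 and 1.09 CPM in migratory dendritic cells, which rested on 2 UMIs each. All 6 runs of cDC1 lay between 24.5 and 52.7 CPM, with a median of 32.0 CPM. Tumor or epithelial cells came next at 16.6 CPM (13.8 to 19.8), with runs from 9.64 to 26.0 CPM that just overlapped those of cDC1. The level in tumor cells of the CD4/CD8-selected set was 16.7 CPM (13.97 to 19.8), close to that of the other set. Macrophages held 7.28 CPM, less than tumor cells in each matrix, so Tlr3 in tumor cells was 228% and 193% of the macrophage level.

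The plot of levels by barcode run sets these genes side by side. For Tlr2 in most macrophage subsets the spread between runs was wider than the counting interval.

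**Figure D2:**
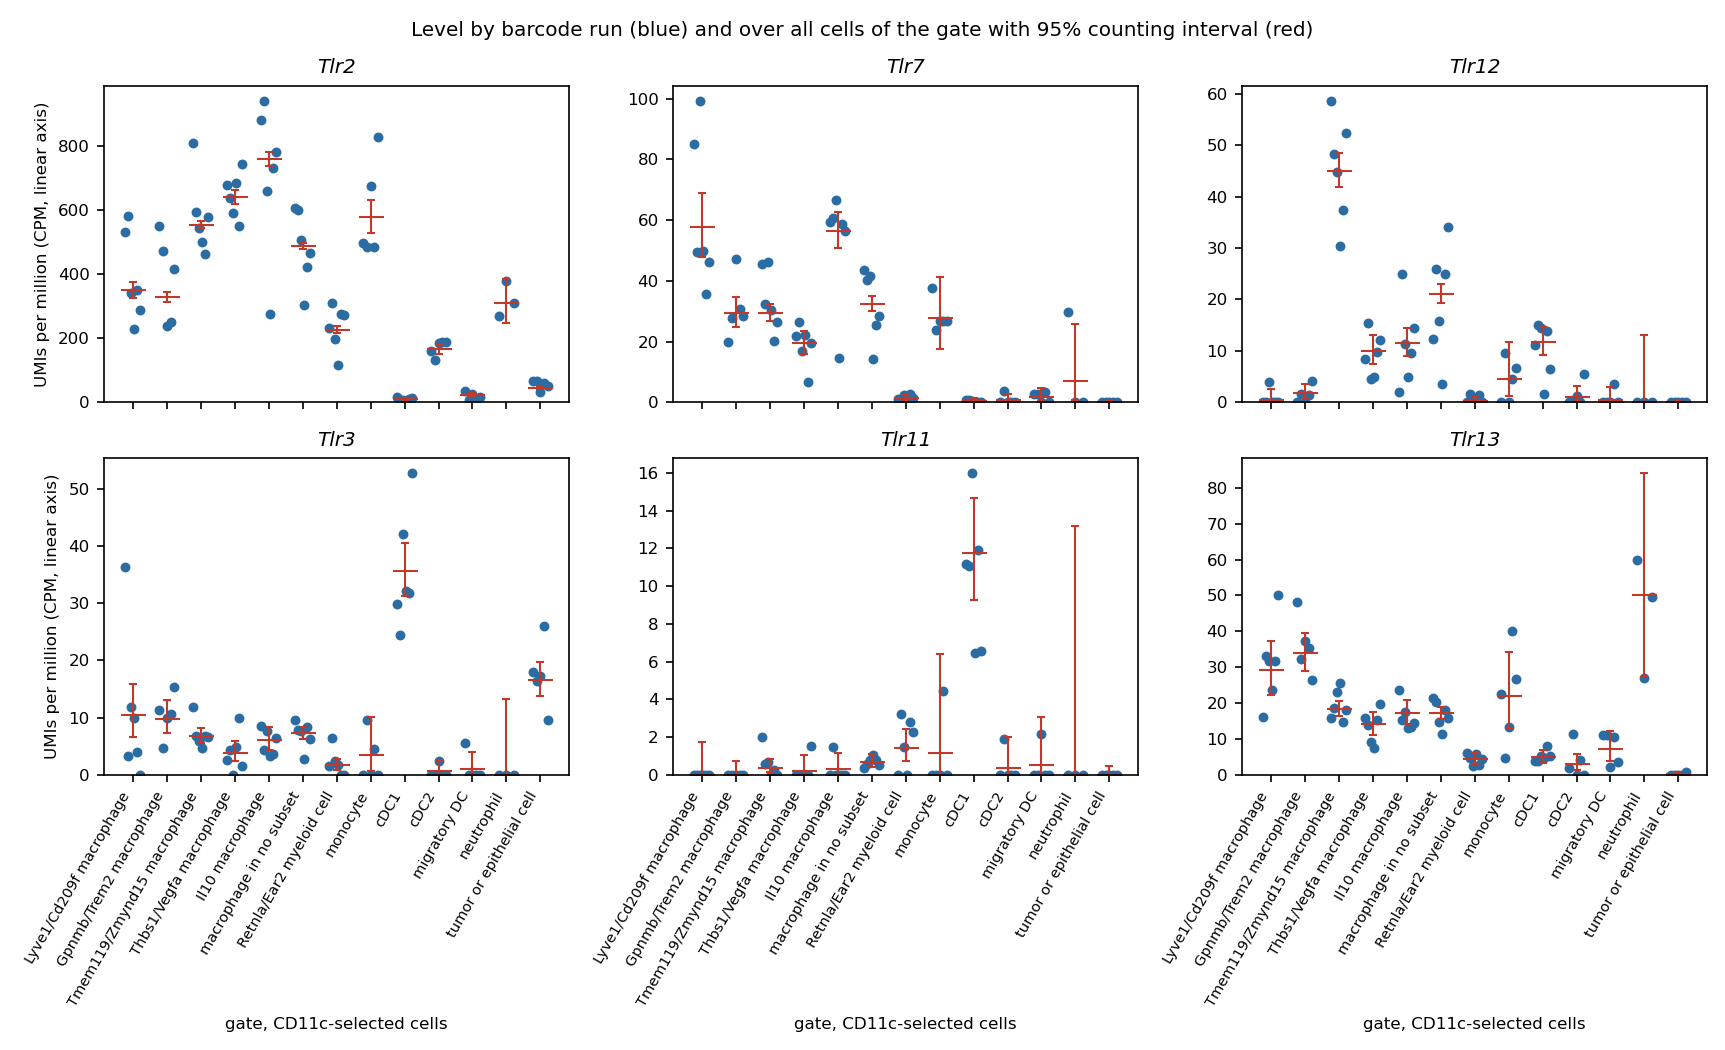
Levels of 6 Toll-like receptor genes in CD11c-selected cells: each blue point is 1 barcode run with at least 10 cells of the gate (runs could be linked to no sample), and the red mark is the level over all cells of the gate with its 95% Poisson interval. The axis is linear and differs between panels; the runs of cDC1 stand apart from all other gates for Tlr11, from 6.43 to 16.0 CPM.

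Tlr7, the sensor of single-stranded RNA that lets pDC respond to viruses, was highest in pDC. The 50 pDC of the CD4/CD8-selected set held 112 CPM (82.8 to 147, 50 UMIs), against 37.1 CPM in macrophages of that matrix, and the 2 runs with at least 10 pDC stood at 74.9 and 137 CPM. The CD11c-selected set had 16 pDC with 17 Tlr7 UMIs, or 126 CPM (73.3 to 202). Thinned to 2000 UMIs, 18.4% of pDC (8.76 to 32.0%) and 7.92% of macrophages in the CD4/CD8-selected set had a Tlr7 UMI.

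Among CD11c-selected macrophages Tlr7 was high in those with Lyve1/Cd209f, at 57.7 CPM (47.9 to 69.0), and in those with Il10, at 56.5 CPM. These 2 subsets did not differ beyond their intervals, and either could rank as the highest depending on the setting. Thbs1/Vegfa macrophages held 19.4 CPM, and their runs, from 6.58 to 26.5 CPM, lay below those of the Il10 macrophages except for run 4 of the latter at 14.6 CPM. Tlr7 was nearly lacking from conventional dendritic cells, with 0.458 CPM in cDC1, 0.725 CPM in cDC2 and 1.64 CPM in migratory dendritic cells. Retnla/Ear2 myeloid cells, which carried Tlr2 at 227 CPM (42.4% of the macrophage level), held Tlr7 at 1.52 CPM (4.41%).

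Tlr8, the neighbour of Tlr7 on chromosome X, was a low transcript of macrophages. Its highest gate was again Lyve1/Cd209f macrophages with 9.54 CPM (5.83 to 14.7, 20 UMIs), and the other macrophage subsets lay between 3.51 and 5.58 CPM. The interval overlapped that of the next gate, Il10 macrophages (3.89 to 7.76), and in the CD4/CD8-selected set Lyve1/Cd209f macrophages were not the highest, at 5.37 CPM on 2 UMIs. No UMI was found in cDC1, neutrophils, tumor cells or pDC. In the CD11c-selected set the interval reached 0.563 CPM in cDC1 and 0.489 CPM in tumor cells. In neutrophils it reached 13.2 CPM, above the level of Lyve1/Cd209f macrophages, so the depth did not separate 0 from a macrophage level there. For pDC, which carried Tlr7, 3 counts would be 6.69 CPM, so the depth did not separate a level of 0 from that of macrophages in the same matrix, 6.69 CPM.

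Tlr9, the receptor for CpG DNA, gave few counts in most gates. Its level was 1.46 CPM in CD11c-selected macrophages (106 UMIs) and at most 2.31 CPM in any gate of at least 30 cells of that matrix, in monocytes, where it rested on 2 UMIs. In pDC, a cell type known for Tlr9, no UMI was found among 448316 UMIs of the CD4/CD8-selected set, which allows up to 6.69 CPM, and 3 UMIs were found in the 16 pDC of the other set (22.2 CPM, 4.58 to 64.9). Gates next to each other in level overlapped in their intervals, so their order for Tlr9 could not be read at this depth. CD11c-selected macrophages in no subset, at 1.59 CPM (1.12 to 2.19), did lie above the tumor cells, which held no UMI (up to 0.489 CPM).

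Tlr13, a receptor for bacterial ribosomal RNA that humans lack, was found in macrophages, monocytes and neutrophils. Neutrophils held 50.1 CPM on 14 UMIs (27.4 to 84.0), with 27.1, 49.6 and 59.8 CPM in the 3 runs, and Gpnmb/Trem2 macrophages held 33.9 CPM (29.0 to 39.5). These intervals overlapped. The remaining macrophage subsets lay between 14.05 CPM with Thbs1/Vegfa and 29.1 CPM with Lyve1/Cd209f, and cDC1, at 4.88 CPM, and cDC2, at 2.90 CPM, lay lower. Macrophages of the CD4/CD8-selected set held 40.5 CPM (37.5 to 43.7) and 27.1 CPM without run 3, which contributed 52.7% of those cells. The order of subsets differed there, with Il10 macrophages highest at 46.7 CPM (29.3 to 70.7), against 17.2 CPM in the CD11c-selected set. Gpnmb/Trem2 macrophages followed at 42.2 CPM (36.5 to 48.5), and neighbouring subsets overlapped in their intervals.

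Tlr11 and Tlr12, the profilin receptors of mice, which act together and can also work apart, were both found in cDC1 but parted elsewhere. Tlr11 stood at 11.7 CPM in cDC1 (9.27 to 14.7) with 77 UMIs in 63 cells, and its next highest gate, Retnla/Ear2 myeloid cells, held 1.41 CPM, an 8.36-fold difference. The 6 runs of cDC1 lay between 6.43 and 16.0 CPM and overlapped no run of that gate (0 to 3.21 CPM). Macrophages held 0.456 CPM, and no Tlr11 UMI was seen among 17323 T cells.

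Tlr12 likewise stood at 11.7 CPM in cDC1 (77 UMIs in 54 cells), with runs from 1.61 to 15.0 CPM, but was higher in macrophages with Tmem119/Zmynd15. That subset held 45.05 CPM (41.8 to 48.5), and the 6 runs, from 30.3 to 58.5 CPM, lay above all runs of the other named macrophage subsets. Lyve1/Cd209f macrophages, with 0.477 CPM (a single UMI), and Gpnmb/Trem2 macrophages, with 1.84 CPM, were nearly free of it, although both were well measured for Tlr2. Macrophages in no named subset held 21.1 CPM with runs from 3.52 to 34.0 CPM.

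The same subset was highest for Tlr12 in the CD4/CD8-selected set, at 36.4 CPM (62 UMIs), while Gpnmb/Trem2 macrophages there held 0.215 CPM. Over all macrophages of that matrix the level was 8.22 CPM, but it was 0.779 CPM in run 3 and 16.6 to 59.0 CPM in the other runs, and without run 3 it was 24.3 CPM. Run 3 held 90.7% of the Gpnmb/Trem2 macrophages of that matrix. The pDC carried Tlr12 too, at 22.3 CPM (10.7 to 41.0, 10 UMIs) in the CD4/CD8-selected set and at 22.2 CPM (3 UMIs) among the 16 of the other. No Tlr11 UMI was found in these pDC, with intervals up to 8.23 CPM in the CD4/CD8-selected set and 27.3 CPM in the other.

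T cells held little of any member. In the CD4/CD8-selected set the 17323 CD8 and CD4 T cells were set against the 844 macrophages, and over all 11457 genes with at least 100 UMIs in these cells, 13.5% were at least 4-fold higher in macrophages. Of the members, 8 had 100 UMIs, which the macrophages alone supplied for each of them, and all 8 were past that fold, as a description. Tlr9 (11 and 2 UMIs) and Tlr11 (2 and 0 UMIs) were too low to be counted. For comparison, 5 macrophage check markers in T cells stood at 0.116% (Mertk) to 1.03% (Cd68) of their macrophage level.

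Tlr2, at 0.439% (0.376 to 0.510%), Tlr13, at 0.287% (0.142 to 0.516%), and Tlr8, at 0.632% (0.169 to 1.66%), lay in the range of these markers, with the interval of Tlr8 running past it, and the part of macrophage transcripts in these levels was not tested. Tlr1 stood above it at 13.0% (10.6 to 16.0%), with 163 UMIs in 161 T cells and a level of 1.72 CPM. Tlr12 (8.09%, 5.91 to 10.97%), Tlr7 (4.61%, 3.85 to 5.49%), Tlr3 (4.03%, 2.68 to 5.92%) and Tlr4 (2.17%, 1.48 to 3.11%) also stood above it, at levels of 0.348 to 1.71 CPM. These shares depend on the macrophages of run 3. Without that run Tlr12 stood at 2.61% (1.85 to 3.63%), Tlr1 at 8.83%, Tlr7 at 3.18%, Tlr3 at 3.16% and Tlr4 at 2.06%, all above the markers, which then lay between 0.0395 and 1.12%. Tlr2 then stood at 0.265%, Tlr8 at 0.395% and Tlr13 at 0.135%, within that range. T cells without any UMI of 9 genes of macrophages and pDC were 68.5% of all T cells. In them Tlr1 stood at 1.69 CPM (1.38 to 2.04), against 1.72 CPM in all T cells. Tlr12 stood at 0.600 CPM (0.422 to 0.827), against 0.665 CPM. Tlr7 stood at 1.22 CPM (0.956 to 1.52), against 1.71 CPM, and Tlr2 at 1.30 CPM, against 1.87 CPM. Tlr8 stood at 0.0162 CPM and Tlr13 at 0.0324 CPM, against 0.0422 and 0.116 CPM, on few UMIs. Tlr3 stood there at 0.178 CPM (0.0890 to 0.319), against 0.348 CPM in all T cells, and Tlr4 at 0.243 CPM (0.136 to 0.401), against 0.359 CPM. No marker outside the 9 genes was followed in the filtered T cells, so the filter cannot tell transcripts of T cells from those of other cells. Tumor cells and fibroblasts, which the macrophage markers do not cover, also held Tlr3 and Tlr4. The part of their transcripts in the T cell levels was not tested. Thinned to 2000 UMIs, 0.31% of CD8 T cells and 0.88% of CD4 T cells had a Tlr1 UMI.

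Tlr7 in T cells was uneven, as 16 of the 139 T cells with a Tlr7 UMI held at least 2, against 2 of 161 for Tlr1. By run, Tlr7 in CD8 T cells ranged from 0.367 to 3.58 CPM and Tlr1 from 0.674 to 2.29 CPM. Tlr3 in CD8 T cells was 1.33 CPM in run 3 and at most 0.279 CPM in each other run. Against pDC, Tlr7 in T cells stood at 1.53% and Tlr12, which pDC also carried, at 2.98%. Of 4 pDC markers, Pacsin1 stood at 6.92%, and Klk1, Cox6a2 and Tcf4 at 0.118, 0.193 and 0.514%. Both shares thus lay above all of these markers except Pacsin1. The part of pDC transcripts in the T cell levels of Tlr7 and Tlr12 was not tested further.

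**Figure D3:**
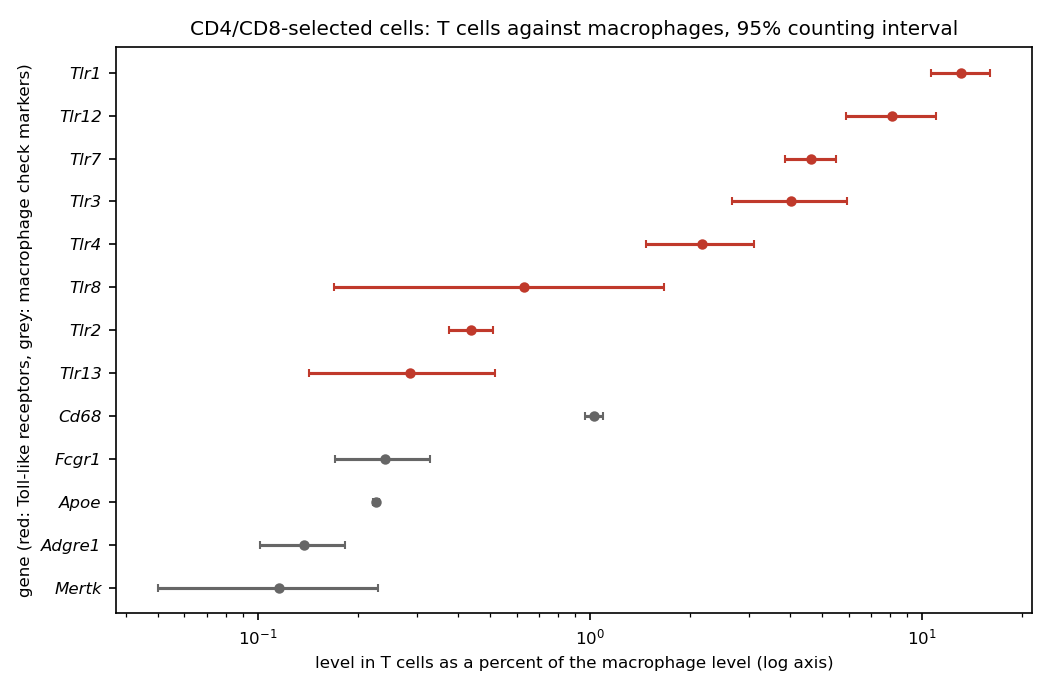
Level in T cells as a percent of the level in macrophages, CD4/CD8-selected cells, on a log axis, for the 8 Toll-like receptor genes with at least 100 UMIs (red) and 5 macrophage check markers (grey), with 95% counting intervals. Tlr1, at 13.0%, and Tlr12, at 8.09% (2.61% without run 3), stand above every grey point, and Tlr2 and Tlr13 stand among them. The pDC, which also carried Tlr7 and Tlr12, are not part of this comparison.

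Across 22 gates of at least 50 cells in both matrices, the member pairs with the most similar pattern were Tlr1 with Tlr8 (Pearson r of log2(CPM + 1) 0.889) and Tlr2 with Tlr13 (0.818). Tlr11 ran apart, with its lowest value, -0.24, against Tlr7. Among 9061 other genes, Tlr2 was most like Sdcbp (0.936), Igsf6 (0.928) and Cd14 (0.924), of which Cd14 is the co-receptor that hands bacterial lipids to Tlr2 and Tlr4. Tlr13 was most like Clec5a (0.960), Tlr7 like Lair1 (0.956), Tlr8 like Kcnk13 (0.964), Tlr1 like C3ar1 (0.905), and Tlr12 like Dnase1l3 (0.881), which encodes a secreted DNase. Tlr3 was most like Anpep (0.859), Tlr4 like Gm15728 (0.904), Tlr9 like Ocstamp (0.894) and Tlr11 like Sept3 (0.847). The gates of a matrix share libraries and depth, so these values describe the gates and carry no test.

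The proteins that work with the receptors were followed from a list of 44 genes, Tlr5 and Tlr6 among them, in groups by role. In the CD11c-selected cells 43 of them had at least 100 UMIs, and 14 of these were highest in a macrophage gate, beside the 22.5% of all genes given above, with fibroblasts left out of this ranking. The accessory and trafficking genes leaned that way, with 7 of 9 highest in macrophages: Cd14, Ly96, Cd180, Ly86, Cd36, Unc93b1 and Hsp90b1. Cd14 was highest in Thbs1/Vegfa macrophages at 2937 CPM and stood at 364 CPM in cDC1. Ly96, which encodes the MD-2 subunit that binds lipopolysaccharide for Tlr4, was highest in Lyve1/Cd209f macrophages at 49.2 CPM, the subset that was also high in Tlr4.

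Unc93b1, the chaperone of the endosomal receptors, stood at 718 CPM in Lyve1/Cd209f macrophages and 616 CPM in pDC. In cDC1 it was at 293 CPM, in tumor cells at 30.5 CPM and in T cells at 13.8 CPM, which was 3.05% of the macrophage level in that matrix. Tumor cells thus held Tlr3 above the macrophage level together with Unc93b1 well below it. The decoy pair Cd180 and Ly86, which restrains Tlr4, was present in cDC1 at 50.04 and 143 CPM, where Tlr4 itself stood at 2.29 CPM.

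The adaptors differed in how far they varied between cell types. Myd88 was fairly even and stood between 24.6 CPM in migratory dendritic cells and 94.4 CPM in Retnla/Ear2 myeloid cells, and T cells held 82.7% of its macrophage level. Ticam1, the adaptor of Tlr3, stood at 22.0 CPM in cDC1 and at 8.49 CPM in tumor cells, where Tlr3 was also found. Ticam2, which links Ticam1 to Tlr4, was at 0.915 CPM in cDC1 and was not seen in tumor cells of the CD11c-selected set, while cDC2 held 18.1 CPM. Tirap, which bridges Myd88 to Tlr2 and Tlr4, ran from 1.09 CPM in migratory dendritic cells to 42.9 CPM in neutrophils, and Ticam2 and Tirap were 35.6-fold and 6.96-fold higher in macrophages than in T cells. Among kinases and ligases, Irak2 was highest in neutrophils at 261 CPM, and Traf6 and Traf3 in migratory dendritic cells at 81.6 and 129 CPM.

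Of the transcription factors, Irf8 and Irf5 were high in cDC1, the gate with most Tlr11 and Tlr3. The level of Irf8, a factor that cDC1 and pDC need to develop, was 1031 CPM in cDC1, 1283 CPM in migratory dendritic cells and 1628 CPM in pDC, against 56.9 CPM in cDC2. Irf5 was highest in cDC1 at 267 CPM. Irf7, the main switch of interferon genes in pDC, was highest in monocytes at 445 CPM among CD11c-selected gates and stood at 290 CPM in pDC.

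Among inhibitors, Irak3 was nearly lacking from cDC1 at 0.305 CPM, and Sigirr ran the other way from most of the list, with 18.4 CPM in T cells and 1.36 CPM in macrophages of the same matrix. Of the target cytokines, Il12b stood at 975 CPM in migratory dendritic cells and 42.0 CPM in cDC1, and Il1b at 8233 CPM in neutrophils. Tnf was highest in Il10 macrophages at 458 CPM, the subset with most Tlr2 in the CD11c-selected set. Lyve1/Cd209f macrophages came next for Tnf at 253 CPM, although their Tlr2, at 350 CPM, was among the lower levels of the macrophage subsets. Fibroblasts, which held Tlr4 and Tlr3, held high levels of the matrix proteins known as host ligands of Tlr2 and Tlr4, with Bgn at 3000 CPM, Vcan at 631 CPM and Tnc at 335 CPM, and also held Lbp, the lipopolysaccharide binding protein, at 361 CPM and Il6 at 1092 CPM.

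**Figure D4:**
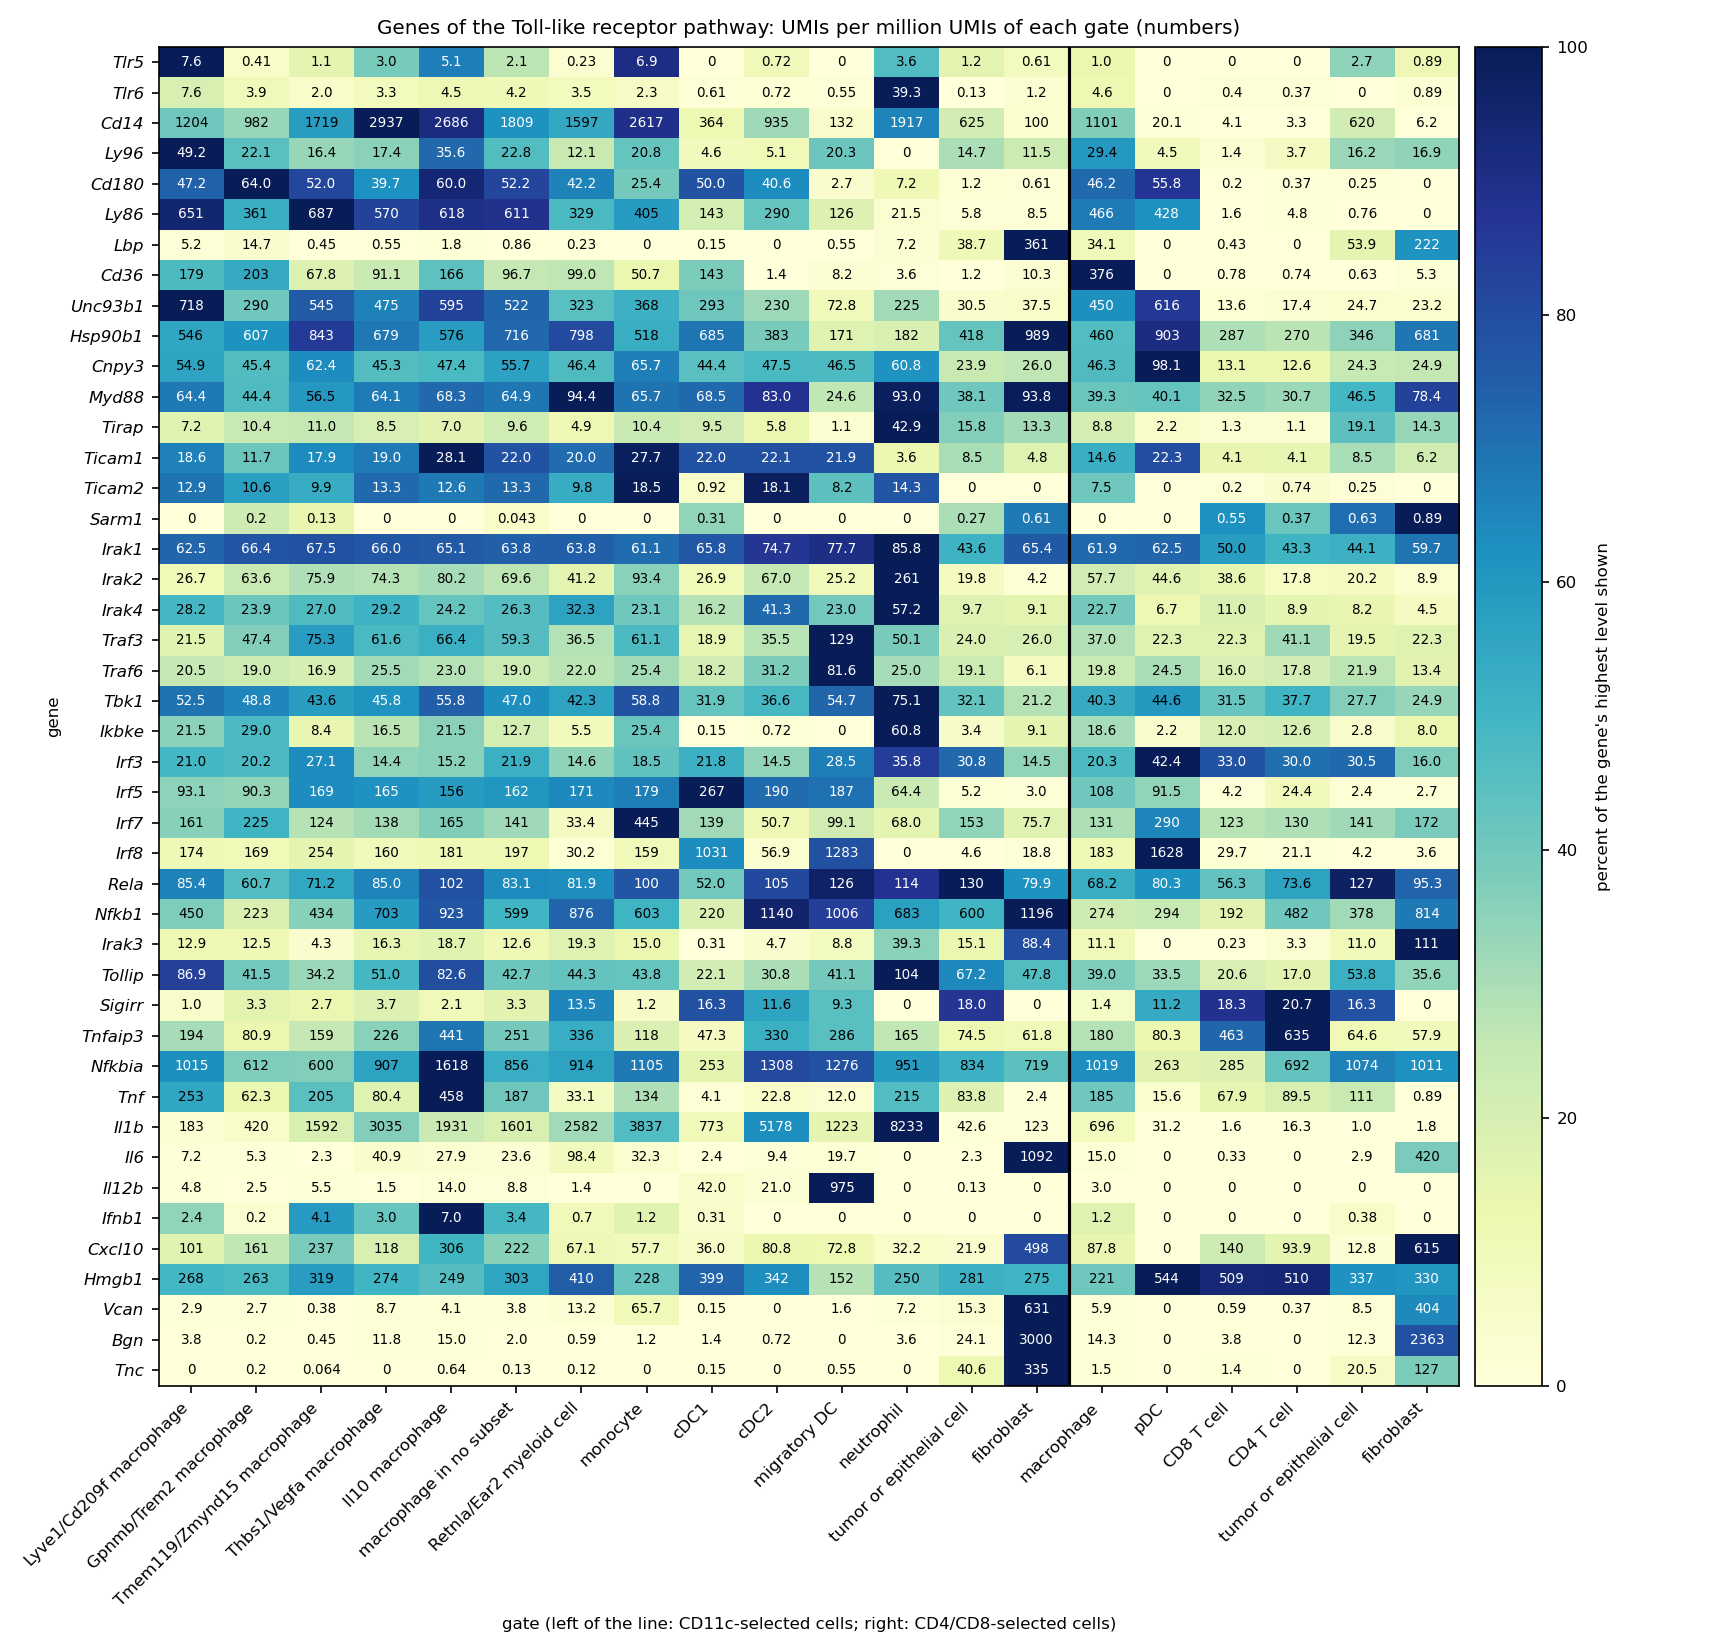
Levels of 44 genes of the Toll-like receptor pathway, Tlr5 and Tlr6 among them (rows), by gate (columns), CD11c-selected cells to the left of the line and CD4/CD8-selected cells to the right, as CPM (numbers), shaded by the percent of the highest level of each gene. Cd14, Ly86 and Unc93b1 are high across macrophages, Myd88 and Irak1 are even, and Bgn, Vcan and Lbp are high in fibroblasts.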

How the data were processed

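Transcripts of single cells were counted in 12 samples, 3 for each of 4 groups. The authors deposited whole-number UMI counts per gene and cell, not normalized, in 1 matrix per selection, and the processing notes of the submitters name Cell Ranger 3.0.2 and mm10 without saying what each step did. The analysis used Python 3.11.15, numpy, scipy and pandas. Because cells could not be tied to samples, each matrix was taken as 1 sample, and intervals cover counting error only.

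Cells with at least 200 detected genes were gated on marker UMIs, for example macrophages by at least 20 UMIs of C1qa, C1qb and C1qc together and 1 of Csf1r, and cells in several gates were left out. The thresholds were set after the marker counts were seen, and the members and lists were chosen with earlier results of these data known. One macrophage check marker of the planned list is not reported here. No doublet caller was run. Gates of at least 30 cells were reported. All 10 members were named, with the 3 genes most alike in pattern for each by Pearson correlation, of which the first is printed for most. Alternatives were doubled thresholds, means of per-cell CPM, 500 detected genes, cells kept in several gates, the deepest 5% of cells left out, mitochondrial genes left out, and each barcode run left out. T cells without UMIs of other types' genes, and the T cell share of the macrophage level without each run, were added after the values were seen. The gating and the intervals were tested on simulated counts.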

Additional observations from a re-analysis of the deposited data

How the results depend on the processing

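The gate of highest level stayed the same for 10 of the 10 members under 4 of the 6 settings tried and for 9 under the other 2, in which Tlr7 moved from Lyve1/Cd209f to Il10 macrophages, with 65.7 against 57.7 CPM in means of per-cell CPM and 60.3 against 59.3 CPM with the deepest 5% of cells left out. With each barcode run left out in turn it stayed for 8 to 10 members, the changes being in Tlr4, Tlr7 and Tlr9. Of 108 levels recomputed under other settings, 89 stayed within the counting interval. For Tlr2 in Il10 macrophages the level was 827 CPM with doubled thresholds, 841 CPM as a mean of per-cell CPM, 694 CPM with cells in several gates kept, 790 CPM without the deepest cells and 804 CPM without mitochondrial genes. In all CD11c-selected macrophages Tlr2 came in the same order to 549, 577, 582 and 564 CPM, cells in several gates making no such change. Tlr2 in tumor cells was 53.8, 50.6 and 51.1 CPM as a mean per cell, without the deepest cells and without mitochondrial genes, and Tlr3 there was 21.5 CPM as a mean per cell. Tlr12 in Tmem119/Zmynd15 macrophages was 50.4 CPM as a mean per cell and 36.5 CPM with cells in several gates kept. In macrophages of the CD4/CD8-selected set, Tlr12 was 12.8 CPM as a mean per cell and 18.3 CPM without the deepest cells, and Tlr13 was 34.6 and 30.8 CPM. The cause of these shifts was not tested.

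With 1 barcode run left out, Tlr2 ranged from 708 to 811 CPM in Il10 macrophages, from 509 to 565 CPM in all CD11c-selected macrophages and from 41.3 to 57.4 CPM in tumor cells. Tlr4 in neutrophils ranged from 16.9 to 47.0 CPM, and in macrophages of the CD4/CD8-selected set Tlr12 ranged from 5.44 to 24.3 CPM and Tlr13 from 27.1 to 41.9 CPM. Thinned to 1000 UMIs, 37.5% of macrophages had a Tlr2 UMI and 3.43% of cDC1 a Tlr3 UMI. Of the 30 genes most alike by Pearson correlation, 12 were among the 3 most alike by Spearman correlation. No paired analysis was possible because the cells are not tied to samples, so replicate numbers could not be used. Levels under about 3 counts per gate, which Tlr8, Tlr9 and Tlr11 had in several gates, are set by depth.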

Other observations

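Endothelial cells were too few for the comparisons, with 29 in the CD11c-selected set and 23 in the CD4/CD8-selected set. They held Tlr3 at 29.7 CPM (95% Poisson interval 17.0 to 48.3, 16 UMIs) and 14.3 CPM (5.76 to 29.5, 7 UMIs), and Tlr4 at 16.7 CPM (7.65 to 31.7) and 18.4 CPM (8.43 to 35.0), 9 UMIs in each set. No UMI of Tlr1, Tlr8, Tlr11 or Tlr12 was found in either set of endothelial cells. The intervals reached 6.9 CPM in the CD11c-selected set and 7.6 CPM in the other, so low levels could not be told from 0. The 14 monocytes of the CD4/CD8-selected set held Tlr2 at 558 CPM (448 to 687).

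Pairs of receptors were followed within single cells thinned to 5000 UMIs, as a description of 1 pooled sample. Among 4530 CD11c-selected macrophages, a Tlr2 UMI was found in 84.7% (80.9 to 87.9%) of the 437 cells with a Tlr1 UMI and in 76.9% (75.6 to 78.2%) of the 4093 cells without one, while among 781 macrophages of the CD4/CD8-selected set the shares were 67.9% (53.7 to 80.1%) and 74.9% (71.5 to 78.0%). The direction thus differed between the sets, and the difference was not tested. In cDC1, Tlr12 was found in 2 of the 21 cells with a Tlr11 UMI and in 22 of the 344 cells without one, which cannot be told apart at this depth.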
